A study of Mus musculus with 2 samples.

Results

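Erythroblasts with intermediate hemoglobin were taken from sc-RNA-Seq counts of bone marrow cells (BMCs) of 1 WT and 1 Cko mouse. They are the cells in which hemoglobin transcripts, the genes whose symbols begin with *Hba-* or *Hbb-*, made up at least 20% and under 60% of the unique molecular identifiers (UMIs), which count captured RNA molecules. A cell also had to hold 0 UMIs of *Cd79a*, under 5 UMIs of *C1qa*, *C1qb* and *C1qc* together, and under 2% of its UMIs from *Camp*, *Ngp*, *Ltf*, *Lcn2*, *S100a8* and *S100a9*. Of the barcodes with at least 200 genes, 670 of 6271 WT cells and 150 of 3662 Cko cells met these limits, which is 820 of 9933 in all. Hemoglobin itself chose the cells, so the globin values below are a description, and the levels of all other genes are given per 10000 non-hemoglobin UMIs summed over the cells of a library.

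Both mice were C57BL6/J and 21 days old, and the BMCs came from the bones of the fore- and hindlimbs, from which red blood cells had been removed with a lysis buffer. The labels give the WT mouse no further alleles, and the study's text elsewhere describes WT mice as S1P f/f without the Cre. The Cko mouse carried S1P f/f;Osx-Cre, that is, 2 floxed copies of *Mbtps1*, the gene of site-1 protease, whose exon 2 is deleted by a Cre under the *osterix* promoter. This Cre is known for the bone-forming lineage, but the study also describes its activity, and loss of exon 2, in blood cells such as neutrophils. Whether erythroblasts lost the exon was not tested, and a mouse with the Cre but without the floxed gene was not analysed here. Each genotype was 1 library from 1 mouse, so that genotype, mouse and library cannot be told apart. Without replicates no difference was tested, and all intervals are 95% intervals that cover counting error only.

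Red cell precursors divide and mature together. As they mature they fill with hemoglobin, made of alpha and beta globin chains and heme, take up iron through the transferrin receptor, build the protein skeleton under the plasma membrane, and then leave the cell cycle, condense the nucleus and clear ribosomes and mitochondria. The share of globin among a cell's transcripts therefore orders erythroblasts roughly by stage, and the cells described here lie between precursors with little globin and late cells in which globin transcripts dominate.

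The libraries held 56382459 UMIs in WT and 34447224 in Cko, over 7181 and 6735 listed genes, and 6001 genes were common to them. No gene was listed that stayed under 4 UMIs in all cells, so a gene missing from 1 library is called not listed and is not taken as 0. The libraries shared 28 cell barcodes, and 4 intermediate-hemoglobin cells had a barcode that also occurred in the other library. *Xist*, the X-inactivation transcript, was listed only in Cko, where 149 of the 150 cells held it, and the Y-linked genes *Eif2s3y* and *Ddx3y* were listed only in WT. The libraries thus differed in sex-linked transcripts as well as in genotype, and these cannot be told apart in any value below. *Mbtps1* had 119 UMIs in the WT cells, a level of 0.415 (0.344 to 0.497), and 23 UMIs in the Cko cells, 0.263 (0.167 to 0.394), but a 3′ tag lies outside exon 2 and does not check the deletion.

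The label was checked against the transcripts. *Rhd*, the Rhesus blood group protein, was detected in 99.6% of the WT cells and 98.7% of the Cko cells. In B cell-like barcodes, which should lack it, 9.91% in WT and 2.04% in Cko held a UMI, at median depths of 5867 and 6952.5 UMIs against 6391 and 9308 in the erythroblasts. *Slc4a1*, the band 3 anion exchanger, was detected in 97.6% and 98.7% of the cells. The 20 erythroid marker genes together took a median of 3.46% of a cell's non-hemoglobin UMIs in WT and 3.77% in Cko, against 0.0431% and 0.0170% in cells with under 1% hemoglobin. 8 WT cells and 2 Cko cells fell below 1% by this measure, and the lowest WT cell had 0.272%. *Ahsp* and *Epb42*, a pair of the erythroid markers, were listed in neither library. By these genes all but these few cells carried erythroid transcripts well above those of the other cells.

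The share of these cells was lower in Cko. They were 10.7% (9.93 to 11.5) of the WT barcodes and 4.10% (3.48 to 4.79) of the Cko barcodes, a ratio of 0.383 (0.319 to 0.458) or a log2 ratio of -1.38. Set against barcodes below the 20% hemoglobin limit plus the cells themselves, the shares were 14.3% of 4672 and 4.41% of 3404, a log2 ratio of -1.70. Among barcodes with 20% hemoglobin or more the direction turned, with 29.5% of 2269 in WT and 36.8% of 408 in Cko, a log2 ratio of 0.32 (0.05 to 0.57). The whole erythroid range was smaller in Cko, with 406 WT and 34 Cko cells at 5 to under 20% hemoglobin and 1334 and 225 cells at 60% or more. Red cells were lysed before capture, a step that can set such shares, and its part was not tested. In the window itself, 173 of 843 WT barcodes and 20 of 170 Cko barcodes were left out by the limits on B cell, macrophage and neutrophil genes.

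Cells were not spread evenly over the window. In WT 24.9%, 21.5%, 23.1% and 30.4% of the cells lay in the 4 windows of 10 percentage points from 20 to 60% hemoglobin, and in Cko 24.7%, 16.7%, 20.7% and 38%. The upper part of the window, from 40 to under 60%, held 53.6% (49.7 to 57.4) of the WT cells and 58.7% (50.3 to 66.6) of the Cko cells, and these intervals overlap. The median hemoglobin share was 41.6% in WT and 46.6% in Cko. Just inside the lower limit a WT cell had 20.0015% and a Cko cell 20.0087% hemoglobin, the highest cell had 59.9% in both libraries, and just outside them the nearest barcodes had 19.97% and 60.05% in WT and 19.68% and 60.13% in Cko, so that the limits fall within a continuum. UMIs per cell ran from 3202 through a median of 6391 to 20924 in WT and from 3684 through 9308 to 27250 in Cko. The Cko cells were thus the deeper ones, with a median of 4846.5 non-hemoglobin UMIs and 1427 genes against 3669 and 1272.

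The make-up of the non-hemoglobin transcripts shifted along the window in both libraries. Ribosomal protein genes took 34.4%, 29.9%, 25% and 17.1% of the non-hemoglobin UMIs in the 4 WT windows and 38.8%, 33.7%, 27.5% and 21.9% in the Cko windows. They took 38.1% and 40.7% in cells of 5 to under 20% hemoglobin and 7.94% and 12.7% in cells of 60% or more, so the share was lower at each step and higher in Cko at each step. Mitochondrially encoded transcripts took 2.26% of non-hemoglobin UMIs in WT and 1.66% in Cko. Because ribosomal transcripts take a smaller share as hemoglobin takes a larger one, the scale on which a gene is read matters along this axis, and the other scales are given beside the counts.

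**Figure D1:**
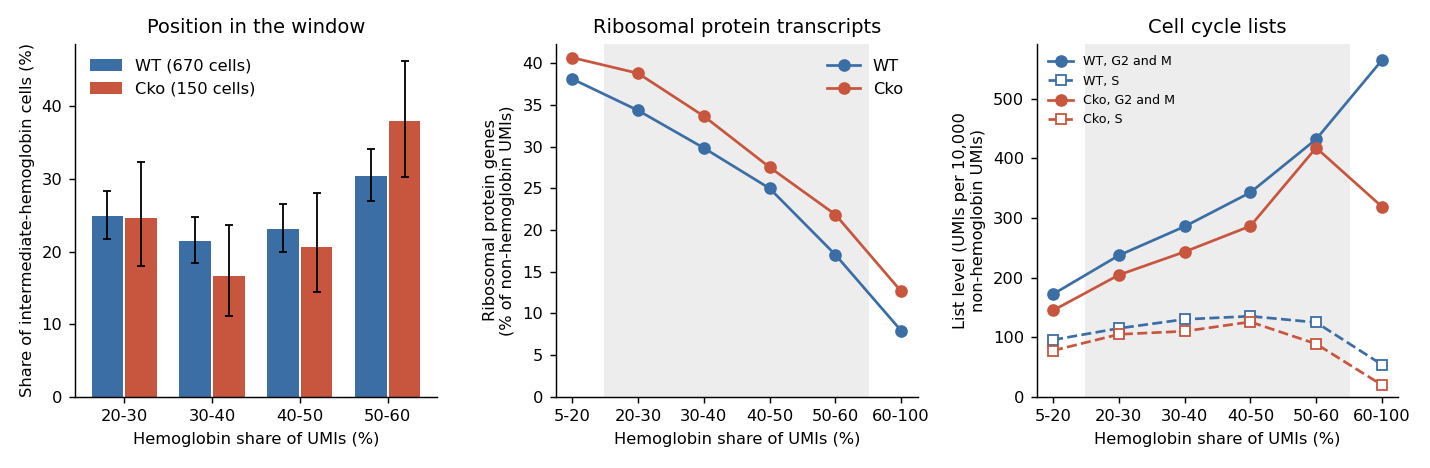
Left, the share of intermediate-hemoglobin cells (%) in each of 4 windows of hemoglobin share (%), with bars for WT (670 cells) and Cko (150 cells) and exact binomial 95% intervals. Middle, ribosomal protein genes as a percentage of non-hemoglobin UMIs, and right, the summed level of the G2 and M phase list and the S phase list per 10000 non-hemoglobin UMIs, both against hemoglobin share, with the 20 to 60% range shaded. The ribosomal share goes from 34.4% to 17.1% in WT and from 38.8% to 21.9% in Cko across the shaded range, while the G2 and M phase level goes up in both.

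The globin chains were described although they chose the cells. Alpha globin transcripts were 37.4% of globin UMIs in WT and 36.8% in Cko. Within alpha globin, *Hba-a2* gave 29.2% in WT and 24.4% in Cko, and its share went from 25.3% in the lowest to 32.1% in the highest WT window and from 20.8% to 26.3% in Cko. Within beta globin, *Hbb-bt* gave 27.6% in WT and 24.3% in Cko and went the other way along the window, from 29.4% to 26.1% in WT and from 26.6% to 23.4% in Cko. These genes are near-identical copies of *Hba-a1* and *Hbb-bs*, so how reads were divided between the copies is uncertain.

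The 4 genes given as markers of these cells were *Rhd*, *Hemgn*, *Tmod1* and *Acp5*. *Rhd* (chr4:134864536-134896172, plus strand, GRCm38) had 5775 UMIs in the WT cells and 1490 in the Cko cells, levels of 20.2 and 17.0 and a Cko/WT log2 ratio of -0.24 (-0.33 to -0.16). Across the 4 windows its level went 12.0, 18.0, 23.7 and 35.0 in WT and 10.3, 13.4, 18.8 and 28.5 in Cko, with 7.72 and 5.08 in the cells below the window and 43.1 and 35.4 in those above. *Rhd* was thus higher at each step of hemoglobin in both libraries and did not peak inside the window. *Hemgn* (chr4:46393989-46413506, minus strand), which encodes hemogen, a nuclear protein of blood-forming cells, had 5940 and 1347 UMIs, levels of 20.7 and 15.4 and a log2 ratio of -0.43 (-0.52 to -0.34). Its WT level went on from 34.9 in the highest window to 39.2 at 60% hemoglobin or more, whereas its Cko level was 25.6 and then 16.2, so that the log2 ratio in the cells above the window was -1.28.

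*Tmod1* (chr4:46038935-46116032, plus strand), tropomodulin 1, caps actin filaments in the membrane skeleton. It had 495 UMIs in WT and 194 in Cko, levels of 1.73 and 2.22 and a log2 ratio of 0.36 (0.11 to 0.60), and went from 0.983 to 3.17 across the WT windows and from 1.11 to 4.21 across the Cko windows. The fourth marker followed another course. *Acp5* (chr9:22126727-22135711, minus strand), tartrate-resistant acid phosphatase, is best known from osteoclasts. Its level across the 4 windows was 4.5, 4.16, 3.19 and 2.34 in WT and 2.21, 1.52, 0.865 and 0.362 in Cko, and it was 0.591 and 0.0494 in the cells above the window. With 1073 and 120 UMIs, levels of 3.74 and 1.37, its log2 ratio was -1.45 (-1.73 to -1.18), and the ratio was -3.58 in cells of 60% hemoglobin or more but -0.12 in cells with under 1% hemoglobin. Among the described cells *Acp5* was therefore highest in the least hemoglobinized ones. For all described cells over the cells just below the window, its log2 ratio was 0.10 in WT and -0.34 in Cko. Over the cells above the window it was 2.66 and 4.79. *Acp5* thus set the described cells apart from the later stage far more than from the earlier one.

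The share of cells with an *Acp5* UMI was 63.0% in WT and 39.3% in Cko, and 28.8% (25.4 to 32.4) and 14% (8.88 to 20.6) after each cell was thinned to 1000 non-hemoglobin UMIs. B cell-like barcodes held an *Acp5* UMI in 19.5% of WT and 25.1% of Cko cases, unthinned, so the Cko share stood less far above this background than the WT share. Other osteoclast markers were at or near 0. In the WT cells *Ctsk* had 5 UMIs, *Mmp9* 3, *Nfatc1* 2, and *Atp6v0d2* and *Tnfrsf11a* 0, and in the Cko cells *Mmp9* had 4, *Nfatc1* 2, and *Ctsk* and *Atp6v0d2* 0. *Calcr*, *Ocstamp*, *Dcstamp* and *Oscar* were listed in neither library. For comparison, a thinned cell held an *Rhd* UMI in 85.1% of WT and 79.3% of Cko cells and a *Tmod1* UMI in 16.1% and 26%.

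The promoters of the markers were searched for AGATAA, the form of the GATA motif bound by the erythroid factor GATA1, on both strands. The windows are RefSeq promoters of GRCm38.p6 and run from 250 bases before to 50 after a gene's start. Of 32851 such promoters 3672, or 11.2%, hold the letters, and they were found for 3 of the 4 markers, in 3 of their 6 promoters. The stretches are shown because these genes name the cells, with the match in capitals.
Rhd: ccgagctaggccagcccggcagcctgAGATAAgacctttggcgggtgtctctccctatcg
Hemgn: tgtggtctaaccAGATAAaacttttaggcg
Acp5: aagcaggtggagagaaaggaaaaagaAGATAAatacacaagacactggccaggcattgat
They lie at chr4:134864467-134864526 on the plus strand, chr4:46404138-46404167 on the minus strand and chr9:22135871-22135930 on the minus strand, written 5′ to 3′ along the gene. The letters did not occur in the *Tmod1* promoter. *Acp5* shares the motif with *Rhd* and *Hemgn* although its level ran opposite to theirs, and a match of letters says nothing of binding.

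**Figure D2:**
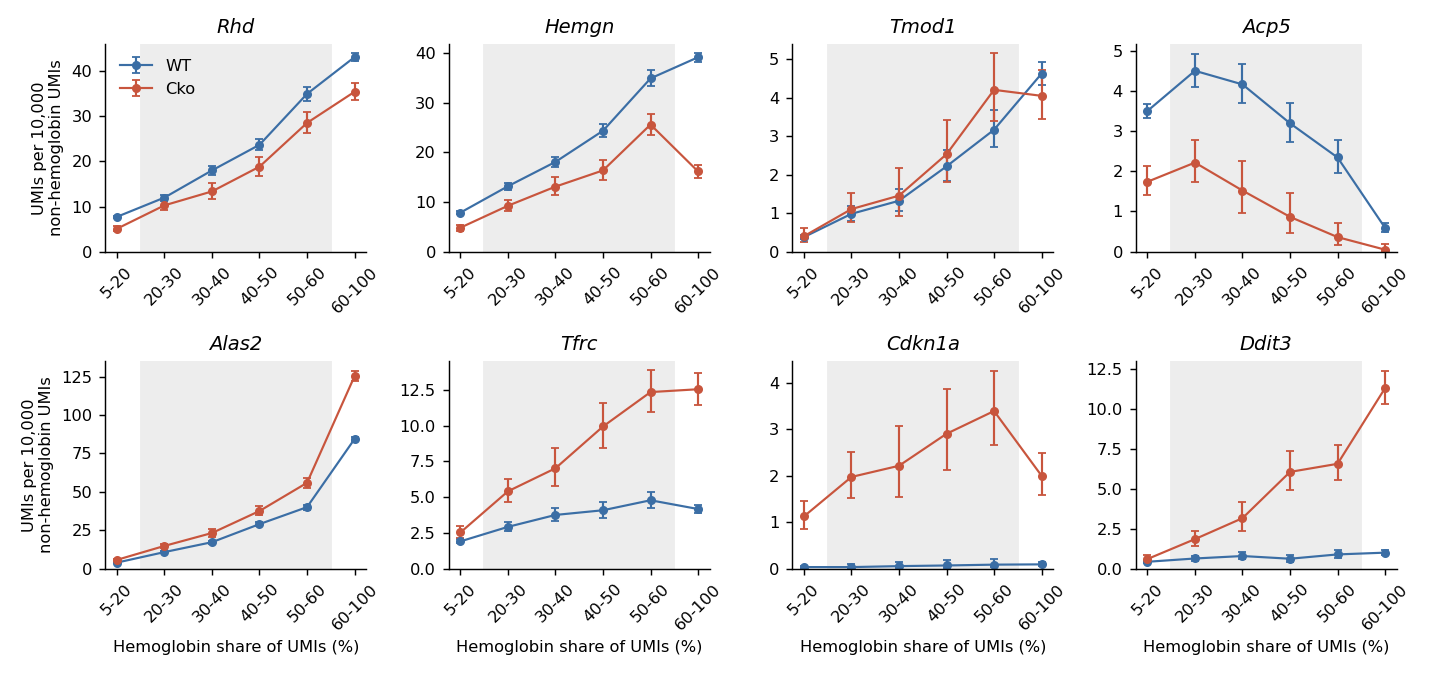
Level of 8 genes (UMIs per 10000 non-hemoglobin UMIs) in WT and Cko cells against hemoglobin share of UMIs (%), with exact Poisson 95% intervals and the 20 to 60% range shaded. *Rhd*, *Hemgn*, *Tmod1* and *Alas2* are higher in each step of the shaded range than in the one before in both libraries, *Acp5* is highest at 20 to 30%, and the libraries lie apart for *Tfrc*, *Cdkn1a* and *Ddit3*.

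Across all genes the WT and Cko cells were close. Of 3141 genes that were listed in both libraries and had at least 100 UMIs in the cells of both together, 65 were at least 2-fold higher in Cko (2.07%) and 46 at least 2-fold lower (1.46%), with a median log2 ratio of -0.07. For all 111 the counting interval lay on 1 side of 0, but they were chosen for a large ratio, so this is no further support. Over all 3141 genes the interval lay above 0 for 450 and below 0 for 652. When each of the 4 hemoglobin windows was given its WT weight, 62 of the 65 and 43 of the 46 were still past 2-fold. With called doublets removed, 62 genes were higher and 71 lower, and 41 of the 46 were among the latter. A cell cycle inhibitor, genes of a stress response and 3 genes of class I antigen presentation were among the larger differences.

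Heme synthesis did not differ past 2-fold in any of its 14 compared genes, and the median log2 ratio was 0.08. *Alas2*, the first and rate-limiting enzyme of erythroid heme synthesis, had 6195 UMIs in WT and 2712 in Cko, levels of 21.6 and 31.0, a log2 ratio of 0.52 (0.45 to 0.58). It was higher in Cko in every window, with 10.9 to 40.1 in WT and 14.9 to 55.9 in Cko. The later enzymes were near 0, at 0.08 for *Urod* and 0.08 for *Fech*, which inserts the iron. *Abcb10*, a mitochondrial transporter that stabilizes iron import, was lower, with 753 and 149 UMIs and a log2 ratio of -0.63.

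Iron handling held 1 gene of 11 past 2-fold in each direction, with a median of -0.25. *Tfrc*, the transferrin receptor through which erythroblasts take up iron, had 1065 UMIs in WT and 726 in Cko, levels of 3.72 and 8.30, a log2 ratio of 1.16 (1.02 to 1.30). Its level went from 2.93 to 4.79 over the WT windows and from 5.42 to 12.3 over the Cko windows, so the libraries lay further apart in the upper part. *Steap3*, the endosomal reductase that follows the receptor, had 132 and 18 UMIs and a log2 ratio of -1.16 (-1.96 to -0.45). The ferritin chains that store iron were lower, *Fth1* with levels of 158 and 106 (-0.57) and *Ftl1* with 58.7 and 48.9 (-0.26). *Slc25a37*, the mitochondrial iron importer, was level at 0.05.

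The membrane skeleton (13 genes compared, median -0.15) and the blood group and surface proteins (15 genes, median -0.04) held no gene past 2-fold either way. Among skeleton genes the log2 ratio was -0.61 for *Add2*, beta adducin, and 0.02 for *Dmtn*. Among surface genes it was 0.37 for *Rhag*, the partner of the Rhesus protein, and -0.01 for *Cd24a*. *Epor*, the erythropoietin receptor, had 581 and 151 UMIs and -0.23 (-0.50 to 0.03). Antioxidants and carbonic anhydrases (15 genes, median -0.05) also held none, with *Prdx2* at 0.15, *Car2* at -0.07 and *Car1* at -0.05. The list of terminal maturation, clearance and protein turnover (22 genes, median -0.09) held none, with *Bnip3l*, which drives removal of mitochondria, at -0.22, and *Ube2o*, which marks ribosomal proteins for destruction, at -0.69.

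Of 19 erythroid transcription factors 1 was past 2-fold, and the median was -0.05. *Klf1* and *Gata1*, which drive most erythroid genes, were at -0.05 and 0.19, and *Tal1* was at 0.02. The exception was *Bcl11a*, the repressor of fetal globin genes, with 106 UMIs in WT and 108 in Cko, levels of 0.370 and 1.23 and a log2 ratio of 1.74 (1.34 to 2.14). Over the windows its level was 0.553, 0.392, 0.180 and 0.180 in WT and 0.898, 0.886, 1.42 and 1.85 in Cko, so the libraries moved in opposite directions. In cells with under 1% hemoglobin its log2 ratio was -0.78.

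The largest difference was in *Cdkn1a* (chr17:29090976-29100727, plus strand), which encodes the cyclin-dependent kinase inhibitor p21. It had 17 UMIs in 14 of the 670 WT cells and 223 UMIs in 74 of the 150 Cko cells, levels of 0.0593 and 2.55, a log2 ratio of 5.42 (4.71 to 6.23). No cell held more than 3 of the WT or 10 of the Cko UMIs. Thinned to 1000 non-hemoglobin UMIs, 0.149% of WT cells and 23.3% (16.8 to 30.9) of Cko cells held a UMI. The Cko level was 1.97, 2.22, 2.90 and 3.39 over the windows while the WT level stayed at or below 0.090, and above the window the log2 ratio was 4.38. In cells with under 1% hemoglobin the log2 ratio was 1.35. Other targets of p53, the tumour suppressor that induces *Cdkn1a*, were not alike, with *Mdm2* at -0.26 and *Bax* at 0.57, and *Cdkn1a* was the 1 of 5 compared that was past 2-fold. The cell cycle exit list, *Cdkn1a* included, had 11 compared genes and a median of -0.07, with *Cdkn2c* at -0.21, *Cdkn2d* at -0.32 and *Btg2* at -0.33.

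The cell cycle lists were slightly lower in Cko. The 36 S phase genes had a level of 124 in WT and 106 in Cko, a list log2 ratio of -0.24 (-0.27 to -0.20), and the 44 G2 and M phase genes a level of 307 and 281, -0.13 (-0.15 to -0.11). The latter was -0.071 without ribosomal and mitochondrial genes and -0.24 for a window of 25 to 55%. None of the 80 genes was past 2-fold, and 6 of 36 and 7 of 44 were above 0, against 1341 of all 3141. *Mcm6*, a subunit of the replicative helicase, was at -0.45, *Pcna* at -0.11, *Mki67* at -0.30 and *Ccnb1* at -0.08. S phase levels were 115, 130, 135 and 125 across the WT windows and 105, 110, 126 and 88.7 across the Cko windows. Above the window they were 54.0 and 19.8, and with cells thinned to 1000 non-hemoglobin UMIs 75.7% of 918 WT and 29.1% of 175 Cko cells there had at least 2 S phase UMIs, against 98.5% and 95.3% of the intermediate cells. Unthinned the shares above the window were 70.0% and 36%, and 416 WT and 50 Cko cells there were too shallow to thin. G2 and M phase levels went from 237 to 432 in the WT windows and from 204 to 418 in the Cko windows, and parted above them, at 565 and 319. Of 23 histone and chromatin genes 2 were past 2-fold, the linker histone *H1f0* at 2.10 and *Hist1h2ae* at 1.08, while the replication-linked histone *Hist1h2ap* had levels of 44.4 and 22.6 and a log2 ratio of -0.97 (-1.04 to -0.91).

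Genes of the ATF4 response were higher in Cko. ATF4 is a transcription factor made when phosphorylation of eIF2 slows translation, as happens with too little amino acid, unfolded protein in the endoplasmic reticulum or, in erythroblasts, too little heme, and it switches on genes for making, importing and charging amino acids. The list was drawn up after values had been seen, so its count is a description. Of its 40 genes 21 could be compared, 11 of these were at least 2-fold higher, none was 2-fold lower, and 20 of the 21 were above 0. The median log2 ratio was 1.01, against -0.07 for all genes compared. The summed level was 26 in WT and 49.3 in Cko.

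*Ddit3* (chr10:127290774-127296288, plus strand), which encodes the stress factor CHOP, had 209 UMIs in WT and 355 in Cko, levels of 0.729 and 4.06, a log2 ratio of 2.48 (2.22 to 2.73). Its WT level was 0.646, 0.799, 0.631 and 0.900 over the windows and its Cko level 1.86, 3.16, 6.05 and 6.56, so the libraries parted as hemoglobin increased. Thinned cells with a UMI were 7.31% in WT and 34.0% in Cko. Unthinned, the shares were 25.2% and 80.7%, against 7.10% and 9.25% of the B cell-like barcodes, also unthinned. *Atf4* itself had 739 and 501 UMIs, levels of 2.58 and 5.72 and a log2 ratio of 1.15 (0.98 to 1.32), and went from 2.15 to 3.31 in WT and from 3.59 to 8.59 in Cko. *Mthfd2*, of mitochondrial one-carbon metabolism, was at 1.65, *Shmt2* of the same pathway at 1.07 and *Asns*, asparagine synthetase, at 0.78.

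*Cebpb* was at 1.81, the translational repressor *Eif4ebp1* at 1.79 and *Herpud1*, of protein degradation at the endoplasmic reticulum, at 1.71. Enzymes that charge transfer RNAs were above 0 in all 8 cases, from 0.61 for *Aars* and 0.66 for *Mars* through 0.85 for *Nars* and 0.92 for *Sars* to 1.01 for *Gars*, 1.09 for *Yars*, 1.15 for *Eprs* and 1.16 for *Tars*. The amino acid transporter chains *Slc3a2* and *Slc7a5* were at 0.92 and 0.51, *Cebpg* at 0.52 and *Ppp1r15a*, which reverses the phosphorylation of eIF2, at 0.25. The exception was *Eif2ak1*, the heme-regulated kinase that phosphorylates eIF2, with levels of 2.20 and 1.81 and a log2 ratio of -0.28 (-0.55 to -0.03). *Trib3* and *Atf5*, ATF4 targets listed only in Cko, had 138 UMIs in 70 cells and 131 UMIs in 61 cells there.

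Cells with little hemoglobin gave other values. In cells with under 1% hemoglobin the median log2 ratio of the 21 genes was -0.56, with 3 above 0, where all 3141 genes had a median of -0.29 and 611 above 0. In the lower part of the window the median was 0.69 and in the upper part 1.32, where all 21 were above 0, and in cells of 60% hemoglobin or more it was 1.35. The summed level was 17.0 in WT and 14 in Cko for cells with under 1% hemoglobin, 17.2 and 17.5 for 5 to under 20%, and 48.5 and 108 for 60% or more. On this list the libraries were thus level at 5 to under 20% hemoglobin and apart within and above the window. The earlier group held only 34 Cko cells, and its cell mix differed between libraries. Its monocyte markers were at 1.77 in WT and 16.0 in Cko, and its stromal markers at 5.22 and 0.0382. Cells with under 1% hemoglobin had erythroid markers at 21.1 and 5.72, against 319 and 326 in the intermediate cells. The list of genes of the endoplasmic reticulum linked to the ATF6 factor, a substrate of site-1 protease, had 15 compared genes, 8 above 0, and a median of 0.05. *Hspa5* was at -0.29, *Calr* at -0.26, *Canx* at -0.58 and *Hsp90b1* at -0.13, whereas *Dnajc3* was at 0.15, *Pdia6* at 0.08 and *Derl1* at 0.46 (0.16 to 0.75). The 3 members past 2-fold were *Ddit3*, *Atf4* and *Herpud1*, which are also in the ATF4 list. The 3 compared genes of cholesterol synthesis, *Fdps*, *Pmvk* and *Ebp*, were at -0.71, -0.50 and -0.24.

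**Figure D3:**
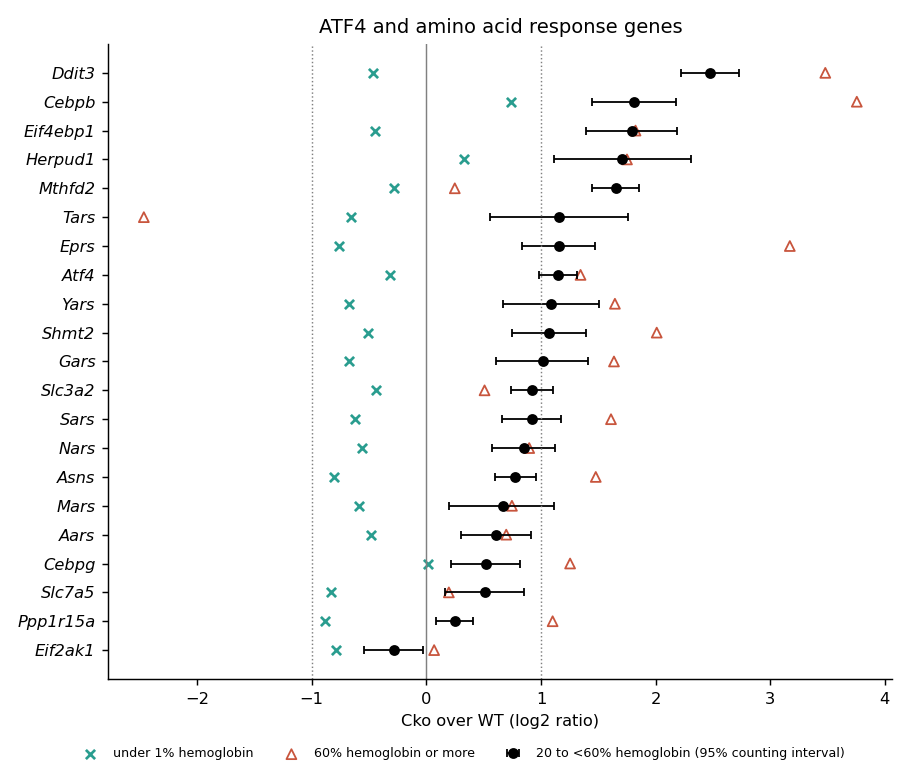
Cko/WT log2 ratio of the 21 compared ATF4 and amino acid response genes. Black points with exact conditional 95% counting intervals are the cells of 20 to under 60% hemoglobin, crosses the cells with under 1% and open triangles the cells of 60% or more, and dotted lines mark a 2-fold difference. 20 of 21 black points and 3 of 21 crosses lie above 0, against 1341 and 611 of all 3141 genes.

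The composite site to which ATF4 binds with a C/EBP partner holds the letters TGATGNAA. They were searched on both strands of the RefSeq promoters of GRCm38.p6, where 1304 of 32851, or 3.97%, hold them. Of the list, 34 genes were matched to RefSeq, with 38 promoters, and 13 genes held a match, in 1 promoter each. The list was made up of known ATF4 targets, so these counts are no independent evidence. Matches are shown in capitals for 1 gene of asparagine synthesis, 1 of protein degradation, 2 charging enzymes and *Trib3*.
Asns: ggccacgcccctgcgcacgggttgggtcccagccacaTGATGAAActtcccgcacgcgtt
Herpud1: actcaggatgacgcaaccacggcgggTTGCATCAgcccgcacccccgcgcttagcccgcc
Gars: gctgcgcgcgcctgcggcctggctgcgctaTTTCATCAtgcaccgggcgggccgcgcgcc
Tars: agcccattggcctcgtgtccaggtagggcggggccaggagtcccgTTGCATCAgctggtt
Trib3: attagctcaggtTTACATCAgccgggcggg
They lie at chr6:7693210-7693269 (minus), chr8:94386291-94386350 (plus), chr6:55037941-55038000 (plus), chr15:11399659-11399718 (minus) and chr2:152344029-152344058 (minus). The *Asns* match reads TGATGAAA along the gene, and the other matches read on the opposite strand. The letters did not occur in the windows of *Ddit3*, *Atf4*, *Atf5*, *Mthfd2* or *Cebpb*.

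Of 7 compared genes of class I antigen presentation, a list drawn up after values had been seen, 3 were at least 2-fold higher in Cko and the other 4 were below 0, with a median log2 ratio of -0.15. *B2m*, the light chain of class I molecules, had 1765 UMIs in WT and 1967 in Cko, levels of 6.16 and 22.5 and a log2 ratio of 1.87 (1.77 to 1.96). *H2-D1* had 436 and 620 UMIs, levels of 1.52 and 7.08 and 2.22 (2.04 to 2.40), and *H2-K1* had 160 and 159 UMIs and 1.70 (1.38 to 2.03). *B2m* was flat along the window, at 6.18, 5.96, 7.08 and 5.44 in WT and 20.9, 23.9, 20.8 and 25.1 in Cko, and 90.7% of thinned Cko cells against 43.0% of WT cells held a UMI. The other 4, *Tapbp*, *Psmb8*, *Psme1* and *Psme2*, lay between -0.59 and -0.15. Cells with under 1% hemoglobin carried these transcripts too, with log2 ratios of 0.59 for *B2m*, 1.11 for *H2-D1* and 0.74 for *H2-K1*, and nearly all B cell-like barcodes held *B2m*. RNA of other cells in the droplets was not tested for these genes. Of 8 interferon-induced genes (median -0.08) 1 was past 2-fold, *Rsad2*, with levels of 1.55 and 0.754 and -1.04 (-1.44 to -0.67), and none was past it in the other direction. *Igtp*, a GTPase induced by interferon-gamma, had 51 and 81 UMIs and 2.38 (1.86 to 2.91) and was 1 of 2 compared genes in the interferon-gamma list, of which the other was not past 2-fold.

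Among the other genes with the highest ratios, *Apol11b* had 187 and 308 UMIs, levels of 0.653 and 3.52 and 2.43 (2.16 to 2.70). The metallothioneins *Mt2* and *Mt1*, which bind zinc and copper, were at 2.42 and 2.25, with 77 and 126 UMIs in WT and 126 and 183 in Cko, and 25 of the Cko *Mt2* UMIs were in 1 cell. *H1f0* had 43 of its 503 Cko UMIs in 1 cell. *Rps18-ps3*, at 2.12, is a processed pseudogene, as were 12 of the 65 genes higher in Cko, 0 of the 46 lower and 23 of all 3141, and reads of such copies can come from the parent ribosomal protein gene. *Pim1*, a kinase gene induced by erythropoietin through STAT5, had levels of 1.79 and 6.35 and 1.83, and went from 1.21 to 3.06 in WT and from 2.75 to 12.4 in Cko. With *Tfrc* it made 2 of the 4 compared genes of the erythropoietin and STAT5 list past 2-fold, a list drawn up after values had been seen. *Plek2*, an actin-binding protein of erythroblasts, was at 1.07. Of the 65 genes, 49 were past 2-fold in the same direction in cells of 60% hemoglobin or more, 23 in cells of 5 to under 20% and 10 in cells with under 1%. In the same 3 groups 61, 55 and 36 of the 65 were above 0. Of all genes, 1237 of 3127, 1198 of 3141 and 611 of 3141 were above 0 there. The share of all genes past 2-fold in these groups was not counted. Only 34 Cko cells had 5 to under 20% hemoglobin.

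The lowest ratios rested on few Cko UMIs. *Apobec3* (chr15:79891659-79915906, plus strand), a cytidine deaminase that acts on retroviruses, had 374 UMIs in WT and 4 in Cko, levels of 1.31 and 0.0457, a log2 ratio of -4.84 (-6.72 to -3.47). Its WT level was even along the window, from 1.21 to 1.49, and thinned cells with a UMI were 11.6% in WT and 0.667% in Cko. *Snhg3*, a host of small nucleolar RNAs, had 215 and 4 UMIs (-4.04), *Gm26917*, a non-coding RNA, 192 and 6 (-3.29) and *Tm7sf3* 164 and 9 (-2.48). *Pf4*, platelet factor 4, had 140 and 7 (-2.61), but 67 of the WT UMIs were in 1 cell. *Morc3* (-1.69), *Stard10* (-1.58), *Ssbp3* (-1.53), *Nt5dc2* (-1.52) and *Rfwd2* (-1.48) made up the remaining 5 of the 10 lowest. *Ssbp3*, a partner of the erythroid LDB1 complex, had the most UMIs of these, 490 and 52, levels of 1.71 and 0.594. Cells with under 1% hemoglobin showed *Apobec3*, *Snhg3*, *Gm26917* and *Ssbp3* lower as well, at -2.17, -4.19, -3.03 and -1.26, and 15 of the 46 genes were past 2-fold there. Although 42 of the 46 were below 0 in those cells, only 611 of all 3141 genes were above 0 there. The share of all genes past 2-fold there was not counted.

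**Figure D4:**
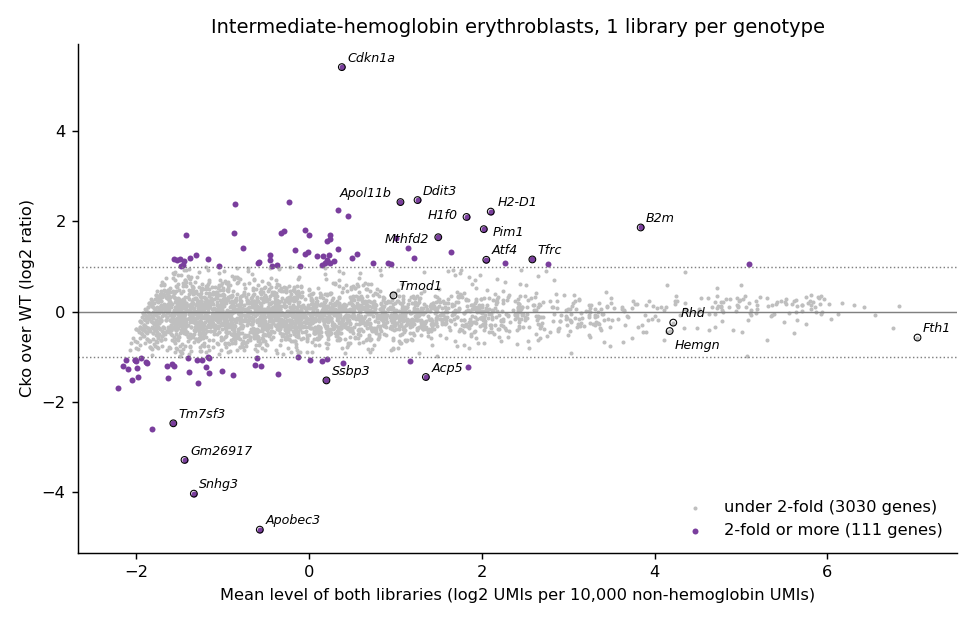
Cko/WT log2 ratio of 3141 genes in intermediate-hemoglobin erythroblasts against the log2 of the mean level of both libraries (UMIs per 10000 non-hemoglobin UMIs). Purple points are the 111 genes at 2-fold or more, gray points all others, and *Cdkn1a* at 5.42 and *Apobec3* at -4.84 lie at the extremes.

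Along the window 81 genes were at least 2-fold higher (2.58%) and 100 at least 2-fold lower (3.18%) in the upper than in the lower part in WT, with a median log2 ratio of 0.09 over all 3141. On the scale of all UMIs these became 6 and 521 with a median of -0.44, and without ribosomal and mitochondrial genes 33 and 240 with a median of -0.15, so the split depends on the scale. Without cells under 1% erythroid markers the counts were 92 and 72. Of the 81 genes 78 went the same way in Cko, 62 of them past 2-fold, and of the 100 genes 83 did, 53 past 2-fold. In Cko 302 of all 3141 genes were at least 2-fold higher in the upper part and 206 at least 2-fold lower. Most genes called in WT thus kept their direction in Cko, but the share of all genes that did so was not counted. More genes passed 2-fold in Cko, where 150 cells held 875224 non-hemoglobin UMIs against 2865711 in the 670 WT cells. Counting error is larger with fewer UMIs, and its part in the larger Cko counts was not tested.

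The genes higher in the upper part included several of late erythroblasts. *Cdkn2d*, the kinase inhibitor p19, was at 1.79 in WT and 1.95 in Cko and went from 2.90 to 17.2 and from 2.15 to 11.7 across the windows. *Dyrk3*, a kinase of erythroid cells, was at 1.82 and 3.20, *Ppp1r15a* at 1.48 and 1.88, *Slfn14* at 1.51 and 2.20, and *Ctsf*, cathepsin F, at 2.01 and 1.45. The histones *Hist3h2ba* and *Hist1h2bc* were at 1.66 and 1.43 in WT and 2.84 and 3.17 in Cko, where 29 and 36 UMIs came from 1 cell. *Apol11b* was at 1.81 and 1.62 and *Tinagl1* at 1.48 and 2.51. *BC100530*, of the stefin family, was at 2.19 in WT, but 27 of its 74 WT UMIs were in 1 cell. By list, the median was 0.61 in WT and 0.82 in Cko for heme synthesis, 0.78 and 0.98 for blood group and surface proteins, 0.78 and 1.01 for terminal maturation, and 0.63 and 0.75 for the G2 and M phase.

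The genes lower in the upper part included genes of growth and metabolism and genes of other cells. *Ethe1* was at -2.78 in WT and -0.53 in Cko, *Snhg6* at -2.22 and -1.72, *Pebp1* at -2.16 and -1.68 and *1110038B12Rik* at -1.99 and -2.10. *Nme1* was at -1.58 and -1.68, *Fbl*, of ribosome assembly, at -1.34 and -0.96, and *Car1* at -0.76 and -2.51. Of the early erythroid progenitor genes (15 compared, Cko/WT median -0.08) the metallothioneins were the 2 past 2-fold, and none of 8 glycolysis genes (0.11) or 7 stress and immediate early genes (-0.10) was. Along the window glycolysis had a median of -0.77 in WT and -0.94 in Cko over 8 genes, with *Gapdh* at -0.98 and -1.0 and *Ldha* at -1.20 and -2.05, and *Bpgm*, which makes the hemoglobin ligand bisphosphoglycerate, the other way at 0.75 and 1.02. *Eif4ebp1* was at -1.81 in WT but 0.44 in Cko, and *Nfu1* at -1.87 and 0.44. *Ctsg*, *Ms4a6c*, *S100a10* and *Cmtm7*, at -1.77, -1.83, -1.81 and -2.05 in WT, are genes of other blood cells for which 95 of 217, 16 of 86, 33 of 183 and 22 of 128 WT UMIs lay in 1 cell. S phase genes were even, with a median of -0.03 in WT and -0.11 in Cko.

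Set against neighbouring stages in WT, 293 of 4513 genes were at least 2-fold higher (6.49%) and 454 at least 2-fold lower (10.1%) in the intermediate cells than in cells of 5 to under 20% hemoglobin. Against cells of 60% or more 969 were higher (21.5%) and 405 lower (8.97%). The 2 contrasts share the intermediate cells. On the scale of all UMIs the counts were 47 and 1238, and 3272 and 67, with medians of -0.61 and 1.54 over all genes, against -0.05 and 0.33 on the main scale. Without ribosomal and mitochondrial genes they were 147 and 701, and 1636 and 220, with medians of -0.29 and 0.70. Without cells under 1% erythroid markers they were 300 and 317, and 882 and 410. Of the WT genes 212 of 293 and 310 of 454 were also past 2-fold in Cko in the first contrast, and 690 of 969 and 314 of 405 in the second. These counts are over the 4513 genes, and the share of all 4513 past 2-fold in Cko was not counted. Over the smaller set of 3141 genes compared between libraries, 260 were at least 2-fold higher and 111 lower in WT in the first contrast. In Cko 437 of that set were higher and 184 lower. In the second contrast 612 of the set were higher and 331 lower in WT, and 935 and 385 in Cko. The Cko counts rest on fewer cells, with only 34 at 5 to under 20% hemoglobin.

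The intermediate cells lay between the stages in most red cell programmes. Heme synthesis genes had a median log2 ratio of 1.0 over the earlier and -0.75 over the later WT cells, against 0.12 and 0.24 for all 3141 genes, membrane skeleton genes 1.01 and -1.04, blood group and surface genes 1.17 and -0.91 and terminal maturation genes 1.01 and -1.84. *Alas2* was at 2.42 and -1.97 and *Bpgm* at 0.92 and -4.51. The S phase list did not follow this order, at 0.33 over the earlier and 1.77 over the later cells, with 27 of 36 genes past 2-fold in the second contrast, *Cdt1* at 3.13 and *Mcm3* at 2.68 among them. *Car1* (-0.24 and 3.40) and *Tmem14c*, a carrier of heme precursors (0.21 and 2.22), were likewise as high in earlier cells and lower in later ones. Against all other WT cells the largest ratios were those of *Nacad* at 3.37, *Fn3k* at 2.84, *Ackr1*, the Duffy antigen, at 2.78, *Samd11* at 2.71, *Plek2* at 2.71, *Mgst3* at 2.70, *Gm867* at 2.63, *Slc6a9*, the glycine transporter that feeds heme synthesis, at 2.61, *Snx22* at 2.53 and *Tmod1* at 2.49, although *Tmod1* was at -1.42 against the later WT cells. These genes describe the cells and are no test, because the cells were chosen from the same transcripts.

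Transcripts of other lineages were low but present. The 15 neutrophil markers had a level of 28.1 in WT and 35.7 in Cko, against 910 and 1580 in cells with under 1% hemoglobin, and 99.9% and 100% of the cells held at least 1 UMI of them. Leading genes were *S100a8* with 3217 and 1040 UMIs, *S100a9* with 1799 and 719 and *Camp* with 826 and 409, and no listed gene of this list was at 0. The rule limits 6 of these genes, and the source of the remainder was not tested. Monocyte markers had levels of 2.82 and 3.84, macrophage markers 0.771 and 0.777, B cell markers 0.890 and 0.514, dendritic cell markers 1.22 and 1.29, megakaryocyte and platelet markers 1.22 and 0.514, T and NK cell markers 0.586 and 0.103, stromal markers 0.223 and 0.708, and basophil and mast cell markers 0.119 and 0.0686. A stromal UMI was held by 8.21% of the WT cells and 2% of the Cko cells, with the highest cell at 9.98 and 90.9. *Cd79a* was at 0 by the rule, *Cd5l* was at 0 in WT and *Vcam1* in Cko. Azurophil granule genes (*Elane*, *Prtn3*, *Ctsg*, *Mpo*) had 1354 UMIs in WT, 505 of them in 1 cell, and 492 in Cko, 368 of them in 1 cell.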

How the data were processed

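Sc-RNA-Seq was done by the authors on BMCs of 1 WT and 1 Cko mouse with the Chromium Single Cell 3′ v2 kit. Each deposited table holds whole, not normalized UMI counts of genes by barcodes, made with Cell Ranger on GRCm38 per the labels, and the Cell Ranger version is not given in the sources used here. No column was left unused. The row of totals in each table was dropped. Rows that shared a gene name were summed, which took 7182 WT rows to 7181 genes. Barcodes with at least 200 genes were kept. With an expected rate of 5%, Scrublet (scanpy 1.11.5) called 161 WT barcodes (2.57%) and 57 Cko barcodes (1.56%) as doublets, 9 and 4 of them among the cells described, and these were kept. Levels are UMIs summed over cells per 10000 non-hemoglobin UMIs, of which the cells held 2865711 in WT and 875224 in Cko. Shares used cells thinned to 1000 non-hemoglobin UMIs. B cell-like barcodes, with at least 3 *Cd79a* UMIs, were 817 in WT and 638 in Cko. Intervals are exact binomial (Clopper-Pearson) for shares, exact Poisson for levels and exact conditional for ratios, and the coverage of the last was tested on simulated data. With 1 library per genotype no test was made, and "past 2-fold" only describes these libraries.

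Genes were compared between libraries, and between the lower and upper part of the window, where they had at least 100 UMIs in the cells of both libraries together. The 4513 genes compared between stages had at least 100 UMIs over the 3 stages of both libraries together. Named genes are the 4 markers, members of the lists, the 10 highest and 10 lowest Cko/WT ratios, the 10 largest differences each way along the WT window and the 10 highest ratios over other WT cells. The cells, lists and rules were chosen with earlier results of these data known. The lists of ATF4 and amino acid response, class I presentation, interferon-gamma, p53 and erythropoietin and STAT5 genes were added after values had been seen. Gene positions are those of GENCODE for GRCm38, and promoters are from RefSeq (GRCm38.p6). The alternatives were at least 500 genes, a window of 25 to 55%, removal of doublets, neutrophil genes under 0.5%, scaling to all UMIs or without ribosomal and mitochondrial genes, a mean over cells, weighting by window, at least 300 UMIs, other denominators and, added after seeing the data, removal of cells with under 1% erythroid markers. Tables were handled with pandas 2.3.3, intervals with scipy 1.17.1 and numpy 2.4.6, and plots with matplotlib 3.10.9, in Python 3.11.15.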

Additional observations from a re-analysis of the deposited data

Results flagged for a closer look

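Of 2756 genes with at least 30 UMIs in the cells of each library, 11 differed at least 1.5-fold between the lower and upper part of the hemoglobin window in both libraries but in opposite directions. The difference between the libraries was not tested, since each genotype was 1 library. *Bcl11a*, the repressor of fetal globin genes, had a log2 ratio of upper over lower part of -1.44 in WT and 0.90 in Cko, and without the 8 WT and 2 Cko cells with under 1% erythroid markers these were -1.46 and 0.82. *Krtcap2*, of the glycosylation complex, was at -1.41 and 0.75, *Mt1* at -0.89 and 1.69, and *Lrrc47*, the only 1 with a ratio above 0 in WT, at 0.71 and -1.35. Without the same cells they were at -0.88 and 1.03, -0.75 and 1.82, and 0.71 and -1.38.

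Of the other 7, *Crip1* was at -1.21 in WT and 1.01 in Cko, *Gmfg* at -1.14 and 1.21, *Hp* at -0.97 and 0.95, *Lgals3* at -1.24 and 1.29, *S100a11* at -0.68 and 1.24, *S100a6* at -0.83 and 1.255 and *Tmsb10* at -1.04 and 0.67. Without the same 10 cells the WT values were -0.04 for *Crip1*, -0.30 for *Gmfg*, 0.83 for *Hp*, 0.65 for *Lgals3*, 0.79 for *S100a11*, 0.31 for *S100a6* and 0.56 for *Tmsb10*, so that 5 of the 7 no longer ran opposite to Cko, and 127 of the 609 WT UMIs of *Tmsb10* were in 1 cell.

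4 genes listed only in the Cko library had at least 100 UMIs in its intermediate-hemoglobin cells, and 95 genes listed only in the WT library had as many in the WT cells. The level per 10000 non-hemoglobin UMIs was 11.8 for *Xist*, 2.92 for *AA465934*, 1.58 for *Trib3* and 1.5 for *Atf5*. *Xist* was even from 11.5 in the lower to 12.1 in the upper part of the window. *Trib3* went from 0.488 to 2.98 and *Atf5* from 0.366 to 2.95, with 5.01 and 7.24 in cells of 60% hemoglobin or more and 0.00915 and 0.0780 in cells with under 1%. Whether these genes differed from WT was not tested, because they were not listed there.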

How the results depend on the processing

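Of 111 summary values recomputed under the alternatives, 76 stayed within the counting interval or within 1.5 times the count, 34 moved and 1 reversed, and of the values of single genes 450 stayed, 18 moved and none reversed. The log2 ratio of the share was -1.70 over barcodes under 20% hemoglobin plus the cells and reversed to 0.32 over barcodes of 20% or more. At a limit of 300 UMIs the genes higher in Cko were 35, those lower 12, and those higher and lower along the WT window 50 and 38. Removal of doublets gave 71 genes lower in Cko. Scaled to all UMIs the counts were 6 higher and 521 lower along the WT window, 47 and 1238 against 5 to under 20% hemoglobin and 3272 and 67 against 60% or more. Without ribosomal and mitochondrial genes they were 33 and 240, 147 and 701, and 1636 and 220. The S phase list was at -0.17 for a window of 25 to 55%, -0.20 without doublets, -0.28 on all UMIs, -0.18 without ribosomal and mitochondrial genes and -0.27 as a mean over cells. The G2 and M phase list was at -0.24, -0.11, -0.17 and -0.071 under the first 4 of these and -0.16 when weighted by window. Neutrophil marker levels in WT were 25.6 for the narrower window, 23.9 at a limit of 0.5% and 24.8 without cells under 1% erythroid markers, and in Cko 33.4 for the narrower window, 32.1 without doublets and 33.4 without those cells. The causes of these moves were not tested. Requiring 500 genes left out no cell described. No paired analysis was possible because each genotype is 1 library. With 1 library per genotype, leaving out a library leaves no comparison, and the 150 Cko cells limit the precision of low genes.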
